A study of Tradescantia spathacea with 6 samples.

Results

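A small set of leaf genes of Tradescantia spathacea stood far higher in plants grown at 30% of sunlight than in plants grown in 100% sunlight. The species is a monocot ornamental with purple leaf undersides, and both groups had spent 2 years in their light when leaf RNA was sequenced. The groups were low light (LL in the labels, 3 libraries) and full sunlight (FL, 3 libraries), and the labels name no genotype, plant, age, harvest day or batch, so the spread between libraries may be technical. The genes were chosen by their level in CPM, the count of a gene per 1000000 counts of its library. A gene needed a mean of 10 to under 500 CPM over the 6 libraries, and its lowest low light library had to reach at least 3 times its highest full sunlight library. That quotient is called the separation ratio here. A gene was also to be dropped if its assembly component held another gene that went the other way (mean of 2 to under 500 CPM, lowest full sunlight library at least 1.5 times the highest low light library). There were 25 such genes among 91987 in the table and among 15284 in the same range of CPM, and the component condition removed 0. The same rule with the lights swapped gave 19 genes.

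Leaves that develop in shade commonly invest more in light-harvesting antenna proteins and less in carbon fixation per area, and are often thinner, while leaves in strong light build photoprotective pigments and antioxidant defences. Anthocyanins, the pigments behind purple leaf surfaces, absorb visible light and are usually made more in strong light. By its title, the study asked how this protection is traded against photosynthetic capacity. The deposited table pairs its assembler identifiers with no gene names, so none of the 25 genes can be placed in these pathways. No leaf marker could be checked for the same reason. In whole leaves, a lower count may come from fewer cells of a type or from less RNA per cell, and these cannot be told apart.

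Total counts were 14961576 to 15084473 in the low light libraries and 14748349 to 15958899 in the full sunlight libraries. A count of 0 allows up to 3 counts, or 0.188 to 0.203 CPM, for counting error only. Full sunlight replicate 2 stood apart from the other full sunlight libraries. Low light libraries differed from each other with a chi-square statistic per degree of freedom of 8.91 to 11.2. In full sunlight it was 8.60 for replicate 1 against 3, but 22.4 for replicate 1 against 2 and 12.7 for replicate 3 against 2. Sampling noise alone would give about 1, so no pair agreed within it. Because the highest full sunlight library enters the rule, values without replicate 2 are given beside those that rest on it.

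The 25 genes had moderate levels in low light and low ones in full sunlight. Their levels in low light averaged from 18.2 to 207 CPM with a median gene at 47.3 CPM, and in full sunlight from 1.41 to 43.1 CPM with a median gene at 5.91 CPM. The quotient of the mean levels ran from 4.08 to 29.9, with a median of 6.85, and reached 10 in 8 of the 25 genes. In full sunlight, 4 genes averaged under 2 CPM and 17 under 10 CPM. In low light, 12 genes averaged at least 50 CPM and 5 at least 100 CPM. No gene was unread in any library. The lowest counts were 104 in a low light library and 3 in a full sunlight library.

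All these values follow from how the genes were chosen, so they are a description and carry no test. In the fit over the whole table, which used edgeR's TMM scaling, their log2 fold changes of low light over full sunlight ran from 2.21 to 5.06 with a median of 2.94, beside a median of -0.02 over all 40084 genes tested. With library totals in place of TMM, the median over all genes was -0.20 and that of the 25 genes was 2.77. edgeR called 25 of the 25 at an adjusted p under 0.05, where 15.4% of all tested genes were called and 8.63% were called higher in low light. The rule used the same contrast, so nothing is read from that count. Of the genes with a mean of 10 to under 500 CPM, 14.8% had all 3 low light libraries above all 3 full sunlight libraries, and 0.164% reached the separation ratio of 3.

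**Figure D1:**
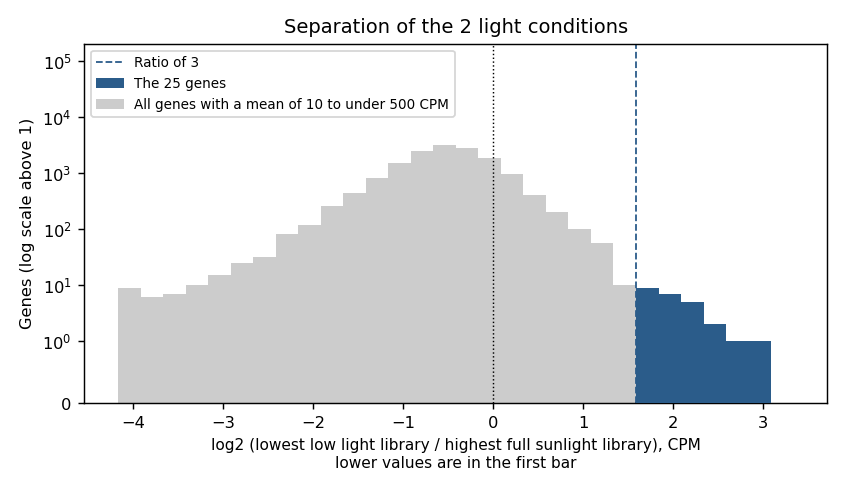
Histogram of the separation ratio (log2 of the lowest low light over the highest full sunlight library, in CPM; x axis) for the 15284 genes with a mean of 10 to under 500 CPM, with the number of genes on a y axis that is logarithmic above 1. Lower values are gathered in the first bar. The 25 chosen genes (blue) are the upper tail past the dashed line at a ratio of 3, up to 8.0, and most genes lie below 0, where the conditions overlap or full sunlight is higher.

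As a share of the library, the genes were a minor part of the leaf's transcripts in both lights. They held 0.175%, 0.150% and 0.182% of counts in low light replicates 1 to 3, and 0.0204%, 0.0334% and 0.0227% in full sunlight replicates 1 to 3. The mean share was 0.169% ± 0.0166 in low light and 0.0255% ± 0.00691 in full sunlight (SD, n = 3 each). Without full sunlight replicate 2, the full sunlight mean was 0.0215%. The 5 genes with most counts supplied 47.4% of the counts of all 25 in low light.

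The 3 genes with the highest low light CPM were of unlike kinds. TRINITY_DN22492_c0_g1 had 193, 216 and 211 CPM in low light replicates 1 to 3, against 34.1, 51.5 and 43.6 CPM in full sunlight replicates 1 to 3. Its low light libraries were the most even of the 25 genes, with the highest only 1.12 times the lowest, and its log2 fold change was 2.43 (SE 0.19). TRINITY_DN2106_c0_g2 was similar, at 195, 172 and 185 CPM in low light and 39.4, 54.9 and 33.1 CPM in full sunlight, with a log2 fold change of 2.29 (SE 0.20). Both genes thus kept a clear level in full sunlight, a quotient of means of 4.80 for the first and 4.34 for the second.

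TRINITY_DN17317_c0_g3, the longest of the 25 genes, had a wider range. It stood at 193, 88.6 and 223 CPM in low light and at 5.56, 24.5 and 7.15 CPM in full sunlight. In low light its replicate 2 was lowest and in full sunlight its replicate 2 was highest, yet the groups lay 3.62 times apart at their nearest. The log2 fold change was 3.91 (SE 0.55), and 4.93 without full sunlight replicate 2. CPM favours long genes, and the deposited FPKM values (fragments per kilobase and 1000000 reads) put the genes in another order.

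Per length, TRINITY_DN5916_c0_g1 was the highest in low light, at 247 ± 29.8 FPKM, against 21.8 ± 28.2 FPKM in full sunlight (SD, n = 3 each). Its full sunlight mean was 5.58 FPKM without replicate 2. Count and FPKM imply a length of only 270 bases for TRINITY_DN5916_c0_g1, which raises its FPKM for a given CPM. This gene was followed by TRINITY_DN22492_c0_g1 at 161 ± 9.65 FPKM in low light and 33.1 ± 6.79 FPKM in full sunlight. Next to it stood TRINITY_DN2106_c0_g2, at 161 ± 10.1 FPKM in low light and 36.6 ± 9.74 FPKM in full sunlight. The last pair differed by less than their spread in low light. TRINITY_DN4512_c0_g1 came after them, at 135 ± 14.4 FPKM in low light and 17.4 ± 5.43 FPKM in full sunlight. TRINITY_DN17317_c0_g3 ranked 12 of 25 per length, with 63.9 ± 26.8 FPKM in low light and 4.72 ± 3.98 FPKM in full sunlight, or 2.42 FPKM in full sunlight without replicate 2. Across the 25 genes, mean FPKM ran from 13.9 to 247 in low light and from 1.17 to 37.8 in full sunlight.

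**Figure D2:**
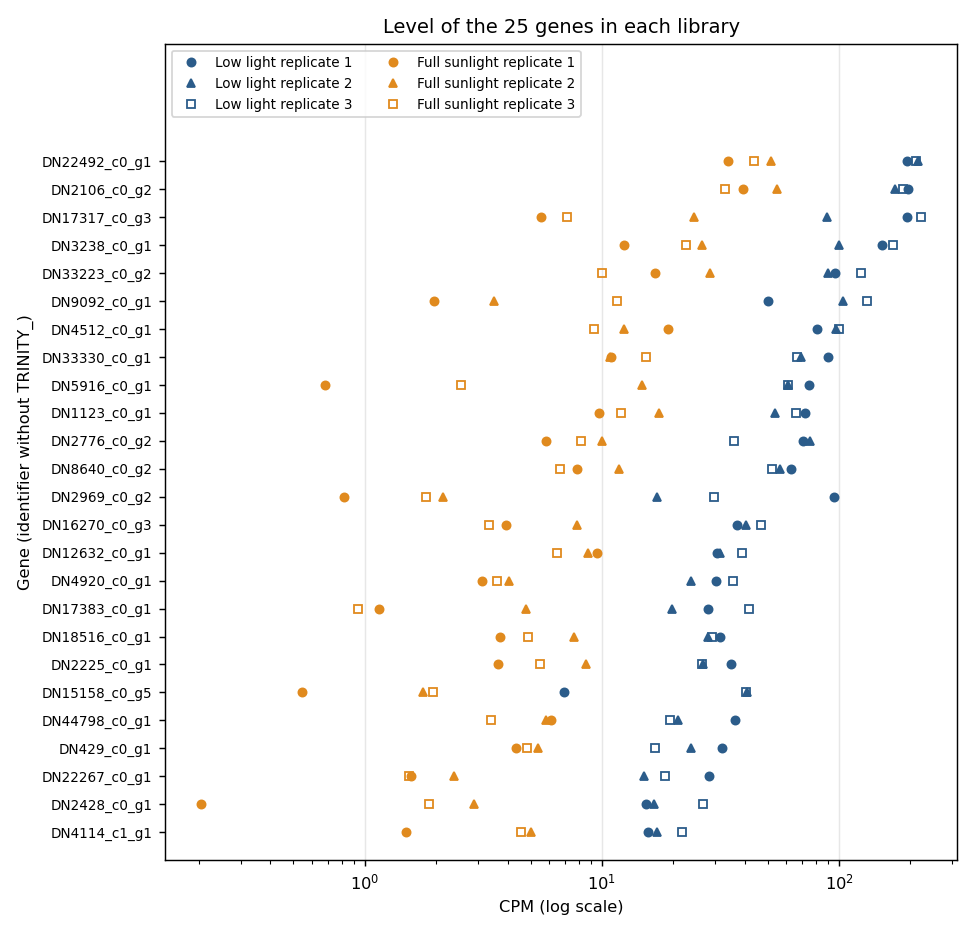
Level of each of the 25 genes (rows, from the highest mean low light CPM at the top) in the 3 low light (blue) and 3 full sunlight (orange) libraries, as CPM on a logarithmic x axis, with a symbol for each replicate number. In every row all blue points lie right of all orange points, at least 3.08 times apart, and the full sunlight point farthest right is replicate 2 in 19 of 25 rows.

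The largest separation ratios belonged to genes with low levels in full sunlight. Full sunlight is the denominator of the ratio, so this follows in part from how it is computed. A low level did not suffice, as TRINITY_DN15158_c0_g5 had the lowest full sunlight mean, 1.41 CPM, and a separation ratio of 3.56. TRINITY_DN2969_c0_g2 had 95.2, 17.0 and 29.7 CPM in low light and 0.814, 2.13 and 1.80 CPM in full sunlight, a separation ratio of 8.0. Its low light replicate 1 was 5.59 times replicate 2. The log2 fold change was 5.06 (SE 0.65), and 4.04 without that library. It had the highest quotient of means of the 25 genes, 29.9.

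TRINITY_DN22267_c0_g1 had 28.2, 15.04 and 18.4 CPM in low light against 1.56, 2.38 and 1.54 CPM in full sunlight, a separation ratio of 6.32 and a log2 fold change of 3.66 (SE 0.30). TRINITY_DN4920_c0_g1 had 30.4, 23.7 and 35.8 CPM in low light and 3.12, 4.07 and 3.61 CPM in full sunlight. Its separation ratio was 5.81 and its log2 fold change 3.23 (SE 0.21). For both of these genes each library left out in turn changed the fold by under 1.5 times. The fourth gene with a separation ratio of at least 5 was TRINITY_DN2428_c0_g1, at 15.3, 16.5 and 26.7 CPM in low light and 0.203, 2.88 and 1.87 CPM in full sunlight. Its value in full sunlight replicate 1 rests on 3 counts.

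At the other end, the rule divided genes that hardly differ. TRINITY_DN2225_c0_g1, just inside, had 35.0, 26.6 and 26.5 CPM in low light and 3.66, 8.58 and 5.48 CPM in full sunlight. TRINITY_DN1123_c0_g1, also just inside, had 71.6, 53.9 and 66.0 CPM in low light and 9.76, 17.5 and 12.0 CPM in full sunlight. Both had a separation ratio of 3.08. Of the 25 genes, 17 reached a ratio of 3.5 and 11 a ratio of 4.

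Just outside lay TRINITY_DN24292_c0_g1, with a separation ratio of 2.95, at 43.9, 26.5 and 56.2 CPM in low light and 1.02, 8.96 and 2.41 CPM in full sunlight. TRINITY_DN13760_c0_g1 followed with a ratio of 2.94, at 158, 143 and 105 CPM in low light and 17.7, 35.7 and 23.8 CPM in full sunlight. Both genes would have reached the ratio of 3 without full sunlight replicate 2. They would also have reached it without their lowest low light library, replicate 2 for the first and replicate 3 for the second. On the level threshold, TRINITY_DN24884_c0_g3 missed the 10 CPM with a mean of 9.91 CPM and a separation ratio of 3.18. The member with the lowest mean, TRINITY_DN2428_c0_g1, stood at 10.6 CPM. No gene of 500 CPM or more reached the separation ratio.

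The low light libraries did not share one order of levels. Replicate 1 was the highest low light library for 11 of the 25 genes, replicate 3 for another 11 and replicate 2 for 3. Among the 2262 genes of the same CPM range whose low light libraries all lay above their full sunlight libraries, replicate 1 was highest for 42.1%, replicate 2 for 22.2% and replicate 3 for 35.6%. For most of the 25 genes the low light libraries were close. The highest was under 1.5 times the lowest in 13 genes and at least 2 times in 6, with a median of 1.38, beside 1.22 for the 2262 genes.

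The 2 most uneven genes were uneven in opposite ways. TRINITY_DN15158_c0_g5 had 6.89 CPM in low light replicate 1 and 40.8 and 40.3 CPM in replicates 2 and 3, against 0.542, 1.75 and 1.94 CPM in full sunlight. Low light replicate 1 was thus its lowest, while for TRINITY_DN2969_c0_g2 it was by far the highest. The log2 fold change of TRINITY_DN15158_c0_g5 was 4.53 (SE 0.65), and 5.00 without low light replicate 1. Another gene with a low value in that library was TRINITY_DN9092_c0_g1, at 50.3, 104 and 131 CPM in low light and 1.97, 3.51 and 11.6 CPM in full sunlight. Its log2 fold change was 4.23 (SE 0.56), and 5.28 without full sunlight replicate 3, the highest full sunlight library for this gene. Low light replicate 3 was the low one for TRINITY_DN2776_c0_g2, at 70.8, 75.5 and 36.1 CPM, against 5.83, 10.03 and 8.15 CPM in full sunlight.

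**Figure D3:**
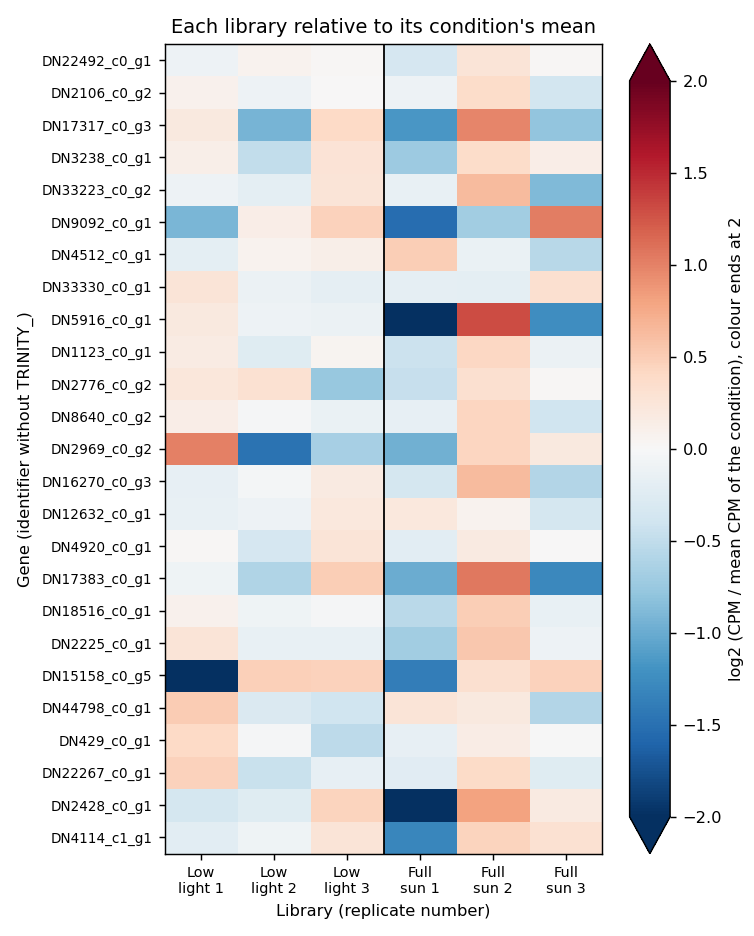
Colour map of log2 CPM of each library relative to the mean CPM of its own condition, for the 25 genes (rows, in the order of their low light level), with the 3 low light libraries left and the 3 full sunlight libraries right of the line. Red marks a library above its condition's mean and blue one below. The full sunlight replicate 2 column is red in most rows, and in the low light replicate 1 column TRINITY_DN2969_c0_g2 is red where TRINITY_DN15158_c0_g5 is blue.

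Full sunlight replicate 2 held the highest full sunlight level for 19 of the 25 genes, and replicates 1 and 3 for 3 each. The same library was the highest for 63.2% of the 2262 separated genes and for 30.1% of all 15284 genes in the range. The median of the 25 genes was 4.34, 8.58 and 5.48 CPM in full sunlight replicates 1 to 3. Their full sunlight libraries were less even than their low light libraries. The highest was at least 2 times the lowest in 14 genes and at least 3 times in 7. The median was 2.07, beside 1.32 for the 2262 genes, which were not matched for level. By the rule, counts of the 25 genes were lower in full sunlight, down to 3 in a library. Low counts alone widen this quotient, and by how much was not tested. On the log2 scale of CPM + 0.1, replicate 2 lay a median of 21.9% of the way from the mean of full sunlight replicates 1 and 3 to the low light mean. For the 2262 separated genes that figure was 31.6%, but a high replicate 2 lowers the separation ratio that chose the 25 genes.

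The distance was largest for TRINITY_DN5916_c0_g1, at 75.0, 60.8 and 60.6 CPM in low light and 0.678, 14.7 and 2.54 CPM in full sunlight. Replicate 2 was 9.15 times the mean of the other 2 full sunlight libraries, while the low light libraries stayed within 1.24 times of each other. Its log2 fold change was 3.59 (SE 0.71), and 5.54 without replicate 2. TRINITY_DN17383_c0_g1 followed, at 28.0, 19.7 and 41.8 CPM in low light and 1.15, 4.76 and 0.936 CPM in full sunlight, with a log2 fold change of 3.85 (SE 0.52) and 5.04 without replicate 2. Leaving out replicate 2 moved the fold by over 1.5 times in 4 genes, the fourth being TRINITY_DN2428_c0_g1 with a log2 fold change of 3.70 (SE 0.53) and 4.41 without it. Over the 25 genes the median log2 fold change became 3.19 without replicate 2.

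Whether the number of such genes rests on that library was seen by applying the rule to the other 5. Without full sunlight replicate 2, 134 genes met it, the 25 and 109 more. For the added genes, replicate 2 stood a median of 2.21 times above the higher of the other full sunlight libraries, beside 1.23 times for the 25 genes. Their lowest low light library was a median of 1.84 times replicate 2, and 2 of the 109 had replicate 2 at or above it. The added genes met the rule only once replicate 2 was left out. Its high level in them thus follows largely from the choice, and these values are a description. Without low light replicate 2, 40 genes met the rule, 22 of the 25 among them. The rest of the 25 still reached the ratio, as each must on fewer libraries. They missed the mean of 10 CPM or the component condition. Leaving out each of the other 4 libraries gave 24 to 35 genes.

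The rule itself was also tried by choosing genes on 4 libraries and reading them in the others. It was applied to 2 low light and 2 full sunlight libraries, in each of the 9 ways of leaving out 1 library of each condition. The sets chosen were not the 25 genes, but each held 23 or 24 of them beside other genes. With full sunlight replicate 2 left out, most of the chosen genes were such others. The 25 genes were chosen on all 6 libraries, so they pass the ratio on any 4 and their recurrence follows from the choice. By the same rule, each of the 25 is at least 3 times higher in CPM in low light in the left-out libraries. This raises the shares below. The values thus describe these sets and are no separate test of the 25. In the libraries left out, the chosen genes were higher in low light in 96.1% to 100% of cases, beside 34.8% to 41.6% of all genes in the range. With full sunlight replicate 1 left out, 32 to 51 genes were chosen, and their median log2 ratio of CPM + 0.1 in the left-out libraries was 2.43 to 2.85. With replicate 3 left out, 33 to 48 genes were chosen, with a median of 2.22 to 2.48. With replicate 2 left out, 143 to 181 genes were chosen and the median was 0.91 to 1.25. In this last case 16.0% to 32.2% of the genes reached a 3-fold difference in the left-out libraries, against 65.9% to 90.6% in the other 6 ways. Over all genes in the range the median log2 ratio was -0.24 to -0.09, and 0.541% to 3.16% reached a 3-fold difference. With TMM scaling, 49.8% to 52.5% of all genes in the range were higher in low light. The 9 ways share libraries and genes, so they are no independent repeats.

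**Figure D4:**
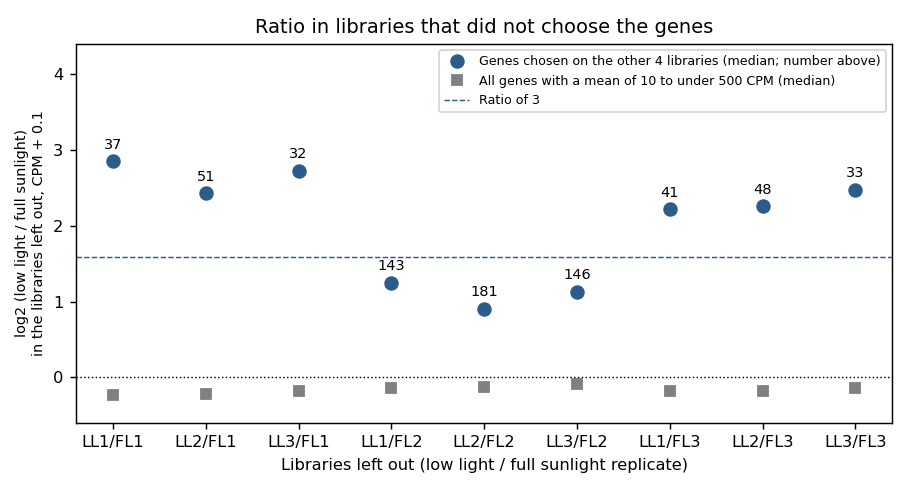
Median log2 ratio of low light over full sunlight (CPM + 0.1; y axis) in 1 library of each condition that was left out when the genes were chosen, for the 9 ways of leaving out (x axis). Blue points are the genes chosen in that way, with their number above, and grey squares all genes with a mean of 10 to under 500 CPM. The 3 ways that leave out full sunlight replicate 2 chose 143 or more genes with a median of 1.25 or less, and the other 6 chose 51 or fewer with a median of 2.22 or more.

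The effective length behind each value can be read from the quotient of count and FPKM, if the library total is the authors' denominator. It ran from 252 bases for TRINITY_DN12632_c0_g1 to 2623 bases for TRINITY_DN17317_c0_g3. The median was 1083 bases, beside 1287 bases over all genes in the same CPM range and 1138 bases over the 2262 separated genes. For 20 of the 25 genes the mean effective length of both lights was within 1.1-fold. Why it differed between lights for the other 5 was not tested.

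For TRINITY_DN12632_c0_g1, the shortest, the quotient of means without a pseudocount differed most between CPM and FPKM. Its level was 30.5, 31.4 and 39.1 CPM in low light and 9.56, 8.71 and 6.48 CPM in full sunlight, a log2 fold change of 2.21 (SE 0.18). In FPKM it stood at 126, 75.4 and 128 in low light and at 48.1, 33.2 and 32.3 in full sunlight, so that the quotient of means was 2.91 in FPKM and 4.08 in CPM. Its effective length was 242, 416 and 305 bases in low light and 199, 263 and 201 bases in full sunlight. TRINITY_DN1123_c0_g1 had 2228, 2261 and 2075 bases in low light and 1655, 1991 and 1969 bases in full sunlight, with no overlap. TRINITY_DN9092_c0_g1 had 1163 bases in low light replicate 2 and 1550 to 1695 bases in the other 5 libraries. On FPKM, 22 of the 25 genes still reached a separation ratio of 3. The exceptions were TRINITY_DN12632_c0_g1 at 1.57, TRINITY_DN1123_c0_g1 at 2.71 and TRINITY_DN33223_c0_g2 at 2.90.

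The assembler groups entries that share sequence into components, and entries of a component may be copies, fragments or splice forms of a gene among which reads are divided. The 25 genes came from 25 components. In 15 of these (60%) the gene was alone, as were 44.6% of all genes in the CPM range. The other 10 components held 21 further genes, of which 11, in 8 components, had a mean of at least 2 CPM. Of the 11, 7 had all low light libraries above all full sunlight libraries, 2 the reverse and 2 overlapped. Of all 28116 genes with a mean of 2 to under 500 CPM, 13.1% had all low light libraries above and 31.1% had all full sunlight libraries above. These shares rest on library totals, with which the median log2 fold change over all tested genes was -0.20, beside -0.02 with TMM. The 11 genes can share reads with the chosen gene of their component, so their count was given no test.

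The chosen genes were selected for a large quotient and their neighbours were not, so a smaller quotient in a neighbour follows from the choice and the values are given as a description. TRINITY_DN2106_c0_g1 stood at 320, 298 and 344 CPM in low light and at 181, 236 and 201 CPM in full sunlight, a quotient of means of 1.56 where TRINITY_DN2106_c0_g2 had 4.34. The neighbour of TRINITY_DN2969_c0_g2, TRINITY_DN2969_c0_g1, had 40.9, 28.7 and 47.1 CPM in low light and 9.29, 19.4 and 11.0 CPM in full sunlight, a quotient of 2.95. It did not share the peak in low light replicate 1. TRINITY_DN2776_c0_g1 had a quotient of 2.57, and for it, as for TRINITY_DN2776_c0_g2, low light replicate 3 had the lowest low light level, at 11.7 CPM against 15.4 and 17.0 CPM in replicates 1 and 2. In the component of TRINITY_DN17317_c0_g3, TRINITY_DN17317_c0_g1 stood at 34.9, 27.2 and 33.5 CPM in low light and at 6.98, 38.2 and 10.7 CPM in full sunlight, where replicate 2 lay above all low light libraries.

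In 2 components a neighbour of at least 2 CPM had all its low light libraries below its full sunlight libraries in CPM. TRINITY_DN15158_c0_g4 had 2.78, 5.61 and 3.74 CPM in low light and 7.53, 8.96 and 6.55 CPM in full sunlight, where TRINITY_DN15158_c0_g5 had a quotient of means of 20.8. TRINITY_DN8640_c0_g1 had 24.3, 23.3 and 21.7 CPM in low light and 34.2, 28.6 and 26.9 CPM in full sunlight. Beside it TRINITY_DN8640_c0_g2 had 62.8, 56.3 and 52.1 CPM in low light and 7.87, 11.8 and 6.68 CPM in full sunlight. Neither lower neighbour reached the factor of 1.5 that would have removed the gene. With TMM, the log2 fold change was -0.75 for TRINITY_DN15158_c0_g4 but only -0.19 for TRINITY_DN8640_c0_g1.

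The component of TRINITY_DN2428_c0_g1 held an extreme and a level neighbour. TRINITY_DN2428_c0_g3 had 75, 70 and 186 counts in low light and 0, 8 and 2 counts in full sunlight. As for TRINITY_DN2428_c0_g1, low light replicate 3 was its highest library. TRINITY_DN2428_c0_g4 overlapped between lights, at 51.4, 35.3 and 52.5 CPM in low light and 60.5, 45.4 and 41.4 CPM in full sunlight.

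**Figure D5:**
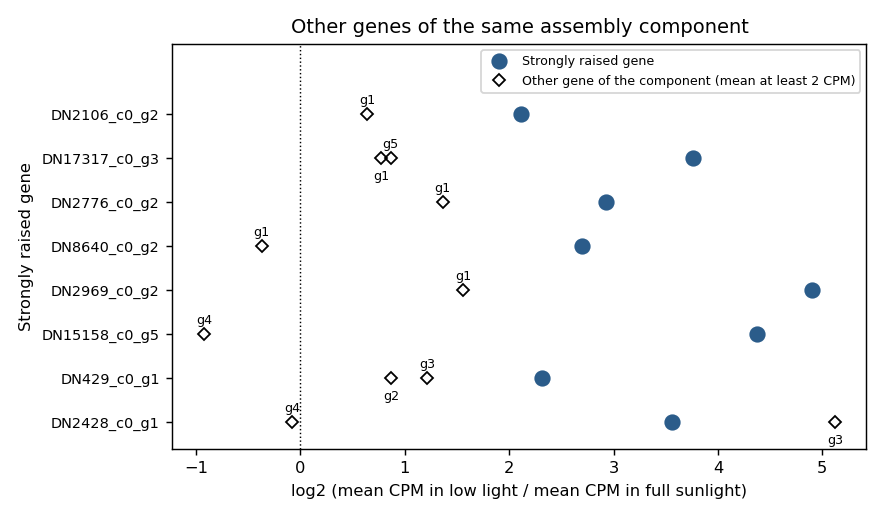
The log2 quotient of mean CPM in low light over full sunlight (x axis) for the 8 chosen genes (blue circles, 1 row each) whose component holds another gene with a mean of at least 2 CPM, and for those other genes (open diamonds, marked with the last part of their identifier). Of the 11 diamonds, 3 lie below 0. The circles were chosen for large values, so that 10 diamonds lie left of their circle follows from the choice. The other one is TRINITY_DN2428_c0_g3, which had 10 counts in all 3 full sunlight libraries together.

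The remaining genes fell between the kinds described. TRINITY_DN3238_c0_g1 had 152, 99.5 and 169 CPM in low light and 12.3, 26.4 and 22.5 CPM in full sunlight. TRINITY_DN33223_c0_g2 had 96.3, 90.2 and 124 CPM in low light and 16.7, 28.6 and 10.03 CPM in full sunlight. TRINITY_DN4512_c0_g1 had 80.9, 97.1 and 100 CPM in low light and 19.1, 12.3 and 9.22 CPM in full sunlight. Each had its highest low light level in replicate 3.

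Full sunlight replicate 2 was not the highest of its condition for TRINITY_DN33330_c0_g1, with 90.0, 69.0 and 66.7 CPM in low light and 10.9, 10.8 and 15.4 CPM in full sunlight. It was not for TRINITY_DN44798_c0_g1 either, with 36.3, 21.0 and 19.4 CPM in low light and 6.10, 5.83 and 3.41 CPM in full sunlight. For these 2 genes low light replicate 1 was the highest library, as it was for TRINITY_DN429_c0_g1, with 32.0, 23.7 and 16.7 CPM in low light and 4.34, 5.39 and 4.81 CPM in full sunlight. The full sunlight libraries of TRINITY_DN429_c0_g1 were the most even of the 25 genes, within 1.24-fold.

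TRINITY_DN16270_c0_g3 had 37.3, 40.7 and 47.0 CPM in low light and 3.93, 7.83 and 3.34 CPM in full sunlight. TRINITY_DN18516_c0_g1 had 31.5, 28.0 and 29.2 CPM in low light and 3.73, 7.64 and 4.88 CPM in full sunlight. TRINITY_DN4114_c1_g1 had the lowest low light mean of all, with 15.7, 17.0 and 21.7 CPM, against 1.49, 5.01 and 4.54 CPM in full sunlight. In these 3 genes the low light libraries were even, within 1.12-fold to 1.38-fold, and full sunlight replicate 2 was the highest of its condition.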

How the data were processed

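RNA was sequenced from leaves in 3 low light and 3 full sunlight libraries. Per the labels' protocols, RNA came from a Trizol extractor kit and libraries from the NEBNext Ultra RNA kit. The submitters' processing notes name RSEM without a version; for the assembly, aligner and filters, settings were not given in the sources used here. Whole-number estimated counts per assembled gene are what the authors deposited, so no rounding was needed, and 24 to 39 genes per library have a count of 0 beside an FPKM above 0. FPKM, deposited beside the counts, is by its name scaled to length and library total. Counting is not stated to use strand, so antisense partners and near-identical copies can share reads.

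CPM was computed from column totals with Python 3.11.15 and pandas 2.3.3. edgeR 4.0.16 in R 4.3.3 (filterByExpr, TMM, quasi-likelihood F test, two-sided, Benjamini-Hochberg adjusted p under 0.05) was fitted to all 6 libraries with no covariate, and SE came from its F statistic. It was tested on simulated data. Alternatives used DESeq2 1.42.0 and limma 3.58.1 on log2(FPKM + 1), with a pseudocount of 0.1 as a further one, on genes of at least 1 FPKM in 3 libraries.

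The genes described first by name were the 3 highest in low light CPM, the 3 with the largest separation ratio, and 2 just inside and 2 just outside its threshold. They also included the most and least even in low light and the longest and shortest. The last 2 were those whose full sunlight replicate 2 stood highest over the mean of full sunlight replicates 1 and 3. Other genes were chosen after their values were seen. The rule, the genes and the alternatives were chosen with earlier results of these data known. Pathway lists could not be matched to the identifiers.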

Additional observations from a re-analysis of the deposited data

How the results depend on the processing

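All 25 genes were chosen again with TMM or DESeq2 size factors (33 genes in all). TMM also eases the ratio, as it raised the median log2 fold change of all genes from -0.20 with library totals to -0.02. A minimum of 5 CPM (36 genes) or no component condition (25) only loosens the rule, so neither could lose any of the 25. On FPKM 25 genes met the rule, 22 of them the same. The number was 107 at a separation ratio of 2, 11 at 4, 158 with a quotient of means of at least 3, 15 from 20 CPM, and 24 to 134 leaving out a library. Of all genes, 6173 were called by edgeR, and 2374 to 8976 leaving out a library. limma called 1721 on log2(FPKM + 1), 1482 with the pseudocount of 0.1 and 357 without a filter on low values, with 23, 21 and 14 of the 25 genes among them, and the cause was not tested. The numbers of genes that limma tested are not given here. The rule chose the 25 genes on the same contrast, so nothing is read from how many of them an alternative called. Scaled by library size only, 2458 calls were higher and 5187 lower in low light, against 3459 and 2714 with TMM. The 25 genes' median log2 fold change was taken with library totals, DESeq2 size factors, a block for replicate number and each library left out. It was also taken as the log2 ratio of mean FPKM + 1. In all of these it moved by less than a spread between libraries of 0.519. That spread is the square root of the summed variances, in low light and in full sunlight, of the libraries' median log2 (CPM + 0.1). No such median was taken for the other alternatives. The low light share of the 25 genes was 0.120% of summed FPKM. For the sets chosen on 4 libraries, which were not the 25 genes but held most of them, the median log2 ratio in left-out libraries was 2.26 over the 9 ways. It was 0.91 to 2.85 among them and 2.31 with TMM. Same-numbered libraries did not deviate together (correlations 0.01, -0.04 and -0.03), and the labels tie no numbers, so they were not taken as pairs. With the replicate block, 4625 of the 40084 tested genes were called, 2742 of them higher in low light. It called 25 of the 25 genes, and their median log2 fold change was 2.98. The block moved TRINITY_DN5916_c0_g1 to 4.23. The lowest log2 fold change of any of the 25 genes in an edgeR alternative was 2.03. As log2 ratio of mean FPKM + 1, the fold moved by over 1.5 times in 4 of the 12 genes named by rule, to 1.51 for TRINITY_DN12632_c0_g1, 3.15 for TRINITY_DN17383_c0_g1, 2.96 for TRINITY_DN22267_c0_g1 and 3.90 for TRINITY_DN2969_c0_g2. Without a pseudocount, the last 3 had nearer quotients of means in FPKM and CPM. These were 13.2 and 13.1 for TRINITY_DN17383_c0_g1, 11.4 and 11.3 for TRINITY_DN22267_c0_g1, and 26.6 and 29.9 for TRINITY_DN2969_c0_g2. In full sunlight, 2 of the genes have a library under 10 counts, which limits their folds.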
